A study of Mus musculus with 15 samples.

Results

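The genes described here are chemokines of the CC and CXC classes and receptors for them, measured in the aorta of mice that ate either a phosphate-rich diet or chow. They were chosen by name, as every gene whose symbol is Ccl, Cxcl, Ccr or Cxcr followed by a number and which had a probe set naming only that gene. This gave 47 of the 22180 genes measured, of which 19 were CC ligands, 13 CXC ligands, 9 CC receptors and 6 CXC receptors. For each gene the brightest such probe set was used, and only Ccl27a had another. Probe sets for Ccl19 and Ccl21 name several near-identical gene copies each and were therefore outside the choice.

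The study measured total RNA of the abdominal and thoracic aorta of DBA/2NCrl mice, an inbred strain, on 15 arrays. Feeding began at an age of 8 weeks and lasted 5 days. The high-phosphate diet held 20.2 g of phosphorus per kg and the standard chow 7.0 g per kg. There were 4 abdominal high-phosphate, 4 abdominal chow, 3 thoracic high-phosphate and 4 thoracic chow arrays, labelled as biological replicates. Neither a deletion nor a drug was part of the design, and sex, pooling of animals and whether both segments came from the same mouse are not given in the sources used here. P-values therefore measure the spread between these samples. Precision is limited by how few arrays there are per group. Values are log2 intensities. A group is given as its mean ± SD, and a difference as the log2 difference ± SE from limma, a linear model fitted across all genes. A gene was called changed when its p, adjusted over all genes with the Benjamini-Hochberg method, was under 0.05.

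Chemokines are small secreted proteins that guide white blood cells, and their receptors are G protein-coupled receptors on the cells they attract. Some ligands are produced steadily and set where lymphocytes settle, such as Cxcl13 in B cell follicles and Cxcl12 in bone marrow and vessel walls. Others are induced by injury, by interferon or by inflammatory cytokines, and recruit monocytes, neutrophils or activated T cells. In the vessel wall they are made by smooth muscle, endothelium, adventitial cells and resident macrophages, and in the fat and lymph nodes around the vessel as well.

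The arrays differed in their levels of genes from tissue around the vessel. Smooth muscle and endothelial genes were bright in every array, with list means of 8.17 to 9.38 over 8 genes and 8.46 to 8.82 over 8 genes. The smooth muscle list mean was higher in the thoracic arrays, at 9.04 to 9.38 against 8.17 to 8.83 in the abdominal ones. Cardiac muscle genes were also brighter there, with list means of 8.03 to 9.12 over 8 genes against 5.72 to 6. Sympathetic and chromaffin genes were brighter in the abdominal arrays, at 7.95 to 9.25 over 8 genes against 5.66 to 6.98. Cd3g, a subunit of the T cell receptor complex, lay at 10.48, 10.51, 7.37 and 9.91 in abdominal high-phosphate arrays 1 to 4, at 5.80, 9.75, 7.07 and 10.30 in abdominal chow arrays 1 to 4, and between 5.10 and 6.31 in the thoracic arrays. High-phosphate arrays 1, 2 and 4 and chow arrays 2 and 4 are called the high-Cd3g arrays below, since each exceeded every thoracic array by at least 2. Glycam1, a mucin of lymph node vessels, lay between 12.17 and 12.78 in all abdominal arrays but chow array 1, at 8.95, and between 6.28 and 6.76 in the thoracic ones, so it was also bright in abdominal high-phosphate array 3 and chow array 3, where Cd3g was low. Hepatocyte genes stood out in abdominal high-phosphate arrays 3 and 4, with list means of 8.85 and 11.02 over 9 genes, and in thoracic chow array 4 at 6.66, against 5.02 to 5.80 in the others. Brown adipocyte genes were lower on high phosphate in both segments. Their list mean over 8 genes ran from 7.27 to 7.90 against 9.07 to 9.53 on chow in the abdominal aorta. In the thoracic aorta it ran from 8.15 to 8.84 against 9.46 to 9.77. Limma called 8 and 5 of the 8 genes lower, against 5.06% and 1.08% of all genes. In such bulk samples fewer cells of a type and less RNA per cell cannot be told apart.

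The diet comparison asks which of these genes responded to phosphate in each segment. Few did. Cxcl14 and Ccr10 fell in the abdominal aorta and Cxcl13 rose in the thoracic aorta. Limma called 2 of the 47 genes, both lower in the abdominal aorta, where 7.01% of all genes were called (1.95% higher and 5.06% lower). It called 1 of 47 in the thoracic aorta, higher, where 2.47% of all genes were called (1.39% higher and 1.08% lower). At an unadjusted p under 0.05 the abdominal count was 13 of 47, against 20% of all genes, and the thoracic count 5 of 47, against 13.8%. The groups did not overlap for 5 of the 47 in the abdominal aorta, against 11.9% of all genes, and for 6 of the 47 in the thoracic aorta, against 13.8%. The median log2 difference of the 47 genes was 0.08 in the abdominal and -0.01 in the thoracic aorta, against -0.01 over all genes in each.

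Cxcl13 attracts B cells and follicular helper T cells through the receptor Cxcr5 and is made by stromal cells of lymphoid follicles. Its thoracic levels were 9.71, 11.11 and 10.21 on high phosphate and 8.01, 7.23, 9.21 and 8.13 on chow. Every high-phosphate array was above every chow array, and chow array 3 came closest to them. The difference was 2.20 ± 0.538, a 4.58-fold rise (adjusted p = 0.0442 by limma). Its abdominal levels were 11.11, 11.48, 11.18 and 11.42 on high phosphate and 8.20, 10.31, 9.46 and 10.95 on chow. The abdominal groups did not overlap either, but the chow arrays were widely spread, with means of 9.73 ± 1.19 (n = 4) on chow and 11.30 ± 0.18 (n = 4) on high phosphate. That difference, 1.57 ± 0.498, was not called (adjusted p = 0.0758 by limma). High-phosphate array 3, with Cd3g at 7.37 but Glycam1 at 12.20, was as high as the other 3 of its group. On chow the high-Cd3g arrays 2 and 4 were the highest of their group. Chow array 3, with Glycam1 at 12.17, lay between them and chow array 1, with Glycam1 at 8.95. The part of lymph node tissue in these abdominal values was not tested. The T and NK cell list mean was 5.32 to 5.58 in all thoracic arrays and the B and plasma cell list mean 5.41 to 5.99, highest in chow array 3. With the mean of these lists as a covariate the thoracic difference was 2.26 ± 0.428 (adjusted p = 0.00791 by limma). That fit was added after the data were seen. The lists varied little among the thoracic arrays, so the covariate could hardly alter the thoracic difference. Spread was estimated over the arrays of both segments, so the smaller SE need not come from the thoracic arrays. The part of lymphocytes in the thoracic difference was therefore not tested. Cxcr5 itself lay between 5.54 and 5.80 in the thoracic high-phosphate and between 5.40 and 5.93 in the thoracic chow arrays.

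The thoracic call of Cxcl13 was close to the threshold. It ended when any of 10 of the 15 arrays was left out, which were abdominal high-phosphate arrays 1, 2 and 4, abdominal chow arrays 2 and 3, thoracic high-phosphate arrays 2 and 3 and thoracic chow arrays 1, 2 and 4. The difference then ran from 1.81 to 2.55 and the adjusted p from 0.015 to 0.187 over all 15 omissions. It also ended without the trend in the variance prior (adjusted p = 0.0513 by limma), with quantile normalization (adjusted p = 0.0502) and without abdominal high-phosphate arrays 3 and 4 (adjusted p = 0.0606). With the brown and the pan-adipocyte list means as separate covariates, which move with diet, the difference was 0.29 ± 1.04. This pair is called the adipocyte covariate below. In the fit with it 0 of 22180 genes were called in the abdominal diet comparison, against 1554 without it. In the thoracic one 4 were called, against 548. A call lost in that fit is therefore not particular to the gene.

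Cxcl14 is a steadily produced chemokine of skin, adipose tissue and other epithelia and stroma. In the abdominal aorta it lay at 7.72, 7.46, 7.88 and 8.03 on high phosphate and at 9.22, 8.96, 9.34 and 8.78 on chow. The groups were far apart and compact, and on chow the high-Cd3g arrays 2 and 4 were the lowest. It fell by 1.30 ± 0.207 on the log2 scale, 2.47-fold (adjusted p = 0.00112 by limma). Thoracic arrays read 9.02, 8.33 and 7.84 on high phosphate and 9.03, 9.19, 9.41 and 8.93 on chow. High-phosphate array 1 was within the chow range there and the other 2 below it. The thoracic difference was -0.74 ± 0.224 and was not called (adjusted p = 0.103 by limma). It passed the threshold without thoracic high-phosphate array 1, at -1.06 (adjusted p = 0.0134 by limma).

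The abdominal fall of Cxcl14 was called in each of 15 fits that left out 1 array, with differences from -1.40 to -1.20. Without the 5 high-Cd3g arrays, which leaves high-phosphate array 3 against chow arrays 1 and 3, the difference was -1.40 and was no longer called (adjusted p = 0.133 by limma). With the adipocyte covariate the abdominal difference of Cxcl14 was 0.31 ± 0.556 and the thoracic one 0.19 ± 0.39. Both were opposite in sign to the fits without it and not called. Over all genes 0 were called in the abdominal and 4 in the thoracic comparison with that covariate.

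Ccr10 is the receptor for Ccl27 and Ccl28 and is found on skin-homing T cells and on plasma cells. In the abdominal aorta it lay at 4.87, 5.02, 4.95 and 5.28 on high phosphate and at 5.72, 5.49, 5.46 and 5.70 on chow. All 4 high-phosphate arrays were below all 4 chow arrays. It fell by 0.56 ± 0.117 on the log2 scale, 1.48-fold (adjusted p = 0.00763 by limma). Thoracic arrays read 5.28, 5.07 and 5.24 on high phosphate and 5.42, 5.34, 5.12 and 5.63 on chow, and the groups overlapped. The thoracic difference was -0.18 ± 0.126 (adjusted p = 0.613 by limma). The abdominal call held in each of 15 fits without 1 array. It ended without the 5 high-Cd3g arrays (-0.64) and with the adipocyte covariate (-0.50 ± 0.417, adjusted p = 0.808 by limma). With that covariate 0 of all genes were called in this comparison. Its ligands showed no comparable difference. Ccl28 differed by 0.14 ± 0.105 in the abdominal and by -0.03 ± 0.114 in the thoracic aorta. Ccl27a differed by -0.03 ± 0.106 and by -0.11 ± 0.114, and is uncertain because its probes can share sequence with near-identical copies.

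**Figure D1:**
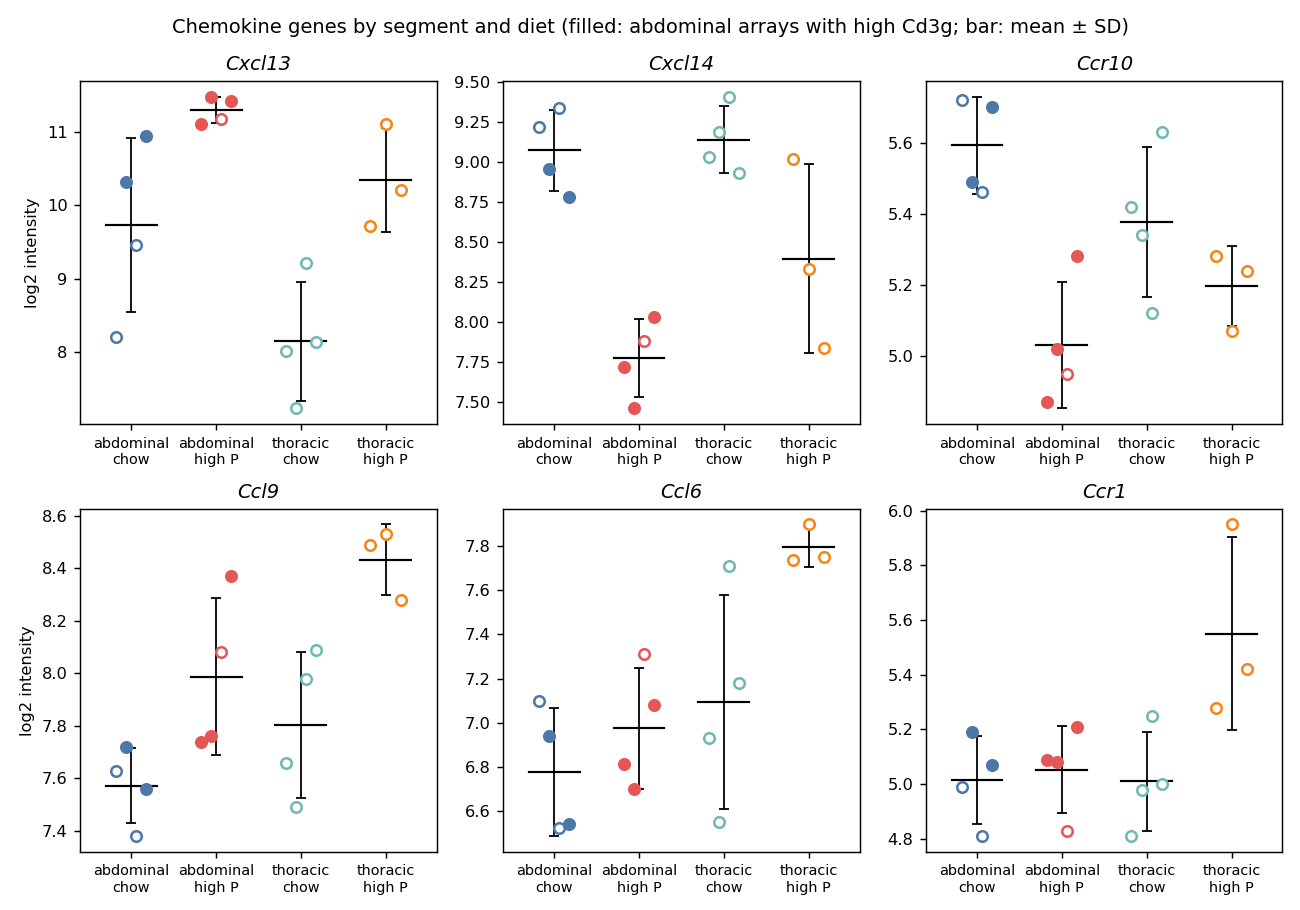
Log2 intensity of Cxcl13, Cxcl14, Ccr10, Ccl9, Ccl6 and Ccr1 in each of the 15 arrays, by segment and diet, with bars for the group mean ± SD and filled points for the 5 high-Cd3g abdominal arrays. Thoracic Cxcl13 is higher on high phosphate, at 9.71 to 11.11 against 7.23 to 9.21 on chow, and abdominal Cxcl14 is lower, at 7.46 to 8.03 against 8.78 to 9.34.

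The 2 ligands that were called moved in opposite directions, so the 250 bases before their transcription starts are shown for comparison, as annotated by RefSeq on mouse GRCm38.p6. Capitals mark matches to TATAAA in Cxcl13 (chr5:95956689-95956938, plus strand) and to TTCNNNGAA and a spaced GAAA repeat in Cxcl14 (chr13:56296552-56296801, minus strand).
Cxcl13: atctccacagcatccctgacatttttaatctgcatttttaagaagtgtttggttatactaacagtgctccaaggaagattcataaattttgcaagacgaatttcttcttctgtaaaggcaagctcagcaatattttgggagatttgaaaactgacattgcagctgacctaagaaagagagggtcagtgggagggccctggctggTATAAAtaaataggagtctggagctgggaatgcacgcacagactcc
Cxcl14: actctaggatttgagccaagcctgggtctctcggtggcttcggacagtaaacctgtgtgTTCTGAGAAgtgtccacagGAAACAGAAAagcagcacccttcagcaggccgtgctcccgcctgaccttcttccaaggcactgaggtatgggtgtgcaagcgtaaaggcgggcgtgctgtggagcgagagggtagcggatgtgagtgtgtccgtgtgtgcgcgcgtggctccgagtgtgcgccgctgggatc
In the Cxcl13 promoter TATAAA lay 46 to 41 bases before the start. In the Cxcl14 promoter TTCNNNGAA, the palindromic core bound by STAT factors, lay 191 to 183 bases before the start, and the GAAA repeat, 2 copies spaced by NN as interferon regulatory factors bind them, 172 to 163 bases before it. No overlap joined the Cxcl14 matches. Both strands of all 32851 RefSeq promoters were searched over the same length, and TATAAA was found in 12.4% of them, TTCNNNGAA in 7.02% and the spaced GAAA repeat in 2.98%. Of the 47 genes 33 had a promoter entry. TATAAA was found for 9 of these 33, TTCNNNGAA for 3 (Ccl17, Ccr6 and Cxcl14), the GAAA repeat for 2 (Cxcl10 and Cxcl14) and the NF-kB motif for 10, against 7.25% of all promoters. A match describes the letters in this window only.

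Ccl9, Ccl6 and Ccr1 form a monocyte and macrophage axis. Ccl6 and Ccl9 are rodent ligands made by myeloid cells and Ccr1 is the receptor they share with Ccl3 and Ccl5. Thoracic Ccl9 lay at 8.49, 8.53 and 8.28 on high phosphate and at 7.66, 7.49, 7.98 and 8.09 on chow, without overlap. The difference of 0.63 ± 0.161 was just short of the threshold (adjusted p = 0.0537 by limma). The thoracic high-phosphate arrays of Ccl6, at 7.74, 7.90 and 7.75, were also above all chow arrays, at 6.93, 6.55, 7.71 and 7.18, though chow array 3 was just below the lowest of them. Its difference was 0.70 ± 0.224 (adjusted p = 0.126 by limma). Ccr1 lay at 5.28, 5.95 and 5.42 on high phosphate against 4.81, 4.98, 5.25 and 5.00 on chow, again without overlap and with chow array 3 close below. Its difference was 0.54 ± 0.153 (adjusted p = 0.0807 by limma).

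The calls on these 3 genes in the thoracic aorta turned on single arrays and settings. Ccl9 passed the threshold without abdominal high-phosphate array 4 or thoracic chow array 4, Ccr1 without thoracic high-phosphate array 1 and Ccl6 without thoracic chow array 3. In these fits the adjusted p by limma reached down to 0.0329, 0.0488 and 0.0263, respectively. Left-out arrays could move the differences to as little as 0.52 for Ccl9, 0.34 for Ccr1 and 0.52 for Ccl6. With the adipocyte covariate they were 0.64 ± 0.361, -0.00112 ± 0.298 and 0.83 ± 0.512.

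Of these genes only Ccl9 separated the diets in the abdominal aorta. It lay at 7.74, 7.76, 8.08 and 8.37 on high phosphate and at 7.63, 7.72, 7.38 and 7.56 on chow. The groups only just separated, and the difference of 0.42 ± 0.149 was not called (adjusted p = 0.118 by limma). High-phosphate arrays 3 and 4, where hepatocyte genes were bright, were the highest, and without them the difference was 0.18 ± 0.15. Abdominal Ccl6 differed by 0.20 ± 0.207 and Ccr1 by 0.04 ± 0.142, with overlapping groups. Macrophage genes were brighter on high phosphate in both segments. Their list mean over 11 genes ran from 7.73 to 8.06 against 7.32 to 7.73 on chow in the abdominal aorta. There 3 of 11 were called higher, against 1.95% of all genes. In the thoracic aorta the list mean ran from 7.73 to 8.27 against 7.45 to 7.59. There 1 of 11 was called higher, against 1.39% of all genes. The part of macrophage genes in the values of Ccl9, Ccl6 and Ccr1 was not tested. Ccl3 and Ccl4, ligands of activated macrophages that signal through Ccr1, lay between 5.48 and 6.17 and between 5.69 and 6.04 in all 15 arrays, and neither was called in any comparison.

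The ligands induced by interferon-gamma, Cxcl9, Cxcl10 and Cxcl11, attract activated T and NK cells through Cxcr3. None was called in either segment, and all 6 diet differences were below 0. Thoracic Cxcl9 lay at 7.08, 6.88 and 6.53 on high phosphate and at 7.66, 7.73, 7.20 and 7.75 on chow. The groups did not overlap, and the difference was -0.75 ± 0.407 (adjusted p = 0.455 by limma). Abdominal Cxcl9 lay at 8.55, 8.50, 6.70 and 7.91 on high phosphate and at 7.87, 8.65, 7.75 and 9.31 on chow. The high-Cd3g arrays were the brightest on both diets, and the difference of -0.48 ± 0.377 was within the spread (adjusted p = 0.532 by limma). With the lymphocyte lists as a covariate Cxcl9 differed by -1.01 ± 0.182 in the abdominal (adjusted p = 0.00369 by limma) and by -0.68 ± 0.183 in the thoracic aorta (adjusted p = 0.0489 by limma), both called. Without the 5 high-Cd3g arrays the thoracic difference was called (adjusted p = 0.0399 by limma) and the abdominal one, -1.11 ± 0.251, was not (adjusted p = 0.0872 by limma). These fits were chosen after the data were seen. With the covariate the thoracic difference changed little, from -0.75 to -0.68, while its SE fell from 0.407 to 0.183. Spread was estimated over the arrays of both segments, so the smaller SE need not come from the thoracic arrays.

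Cxcl10 differed by -0.49 ± 0.187 in the abdominal aorta (adjusted p = 0.141 by limma) and by -0.25 ± 0.202 in the thoracic aorta. The abdominal value with the lymphocyte covariate was -0.69 ± 0.155 (adjusted p = 0.0165 by limma). Cxcl11 was the nearest to the threshold, with abdominal values of 6.87, 6.63, 7.41 and 6.90 on high phosphate and 7.50, 7.91, 7.39 and 7.18 on chow. The groups overlapped through high-phosphate array 3. The difference was -0.54 ± 0.161 (adjusted p = 0.0568 by limma), and it passed the threshold without that array or without chow array 4, with adjusted p down to 0.00735. The receptor Cxcr3 went the other way. It lay at 6.60, 6.93, 6.19 and 6.78 on high phosphate against 5.90, 6.34, 6.15 and 6.30 on chow in the abdominal aorta. The difference was 0.45 ± 0.135 (adjusted p = 0.0586 by limma), and high-phosphate array 3, with low Cd3g, was the only array of its group within the chow range. Thoracic Cxcr3 lay at 6.08, 6.08 and 6.14 on high phosphate and at 6.23, 5.98, 6.13 and 6.13 on chow, and differed by -0.02 ± 0.146.

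The related ligands Ccl2, Ccl7, Ccl8 and Ccl12 did not move together. Ccl2 lay at 6.34, 5.96, 6.80 and 6.16 on high phosphate and at 6.94, 6.73, 6.67 and 7.03 on chow in the abdominal aorta. High-phosphate array 3 overlapped the chow group and the other 3 were below it, and the difference was -0.52 ± 0.235 (adjusted p = 0.227 by limma). Thoracic Ccl2 lay at 7.29, 6.65 and 8.07 on high phosphate and at 6.93, 6.70, 7.09 and 7.00 on chow. That group held both the highest and the lowest thoracic values, and the difference was 0.41 ± 0.254 (adjusted p = 0.551 by limma). Ccl7 differed by -0.22 ± 0.122 in the abdominal and by -0.01 ± 0.132 in the thoracic aorta. Ccl8 differed by 0.75 ± 0.357 and by 0.49 ± 0.386, with thoracic high-phosphate array 2 at 7.64 against 6.06 and 5.96 in the other 2. Ccl12 lay at 9.55, 8.90, 7.98 and 9.26 on high phosphate and at 8.65, 8.87, 8.13 and 9.47 on chow in the abdominal aorta, and at 8.21, 9.05 and 7.87 against 8.60, 8.14, 8.13 and 8.40 in the thoracic aorta. Its diet differences, 0.14 ± 0.331 and 0.06 ± 0.358, were far inside this spread.

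The receptor Ccr2 marks inflammatory monocytes. It lay at 7.60, 7.72, 7.11 and 7.46 on high phosphate and at 7.24, 7.90, 7.47 and 7.69 on chow in the abdominal aorta, and at 6.91, 7.74 and 6.99 against 6.96, 6.86, 7.06 and 6.88 in the thoracic aorta. Thoracic high-phosphate array 2 stood above the other 6 thoracic arrays, as it did for Ccl8, Ccl12 and Cxcl13. It also had the highest thoracic macrophage list mean, 8.27. Its sympathetic and chromaffin list mean was 6.98, against 5.66 to 5.81 in the other thoracic arrays. The part of these lists in the values of this array was not tested. The differences of Ccr2 were -0.10 ± 0.181 and 0.28 ± 0.195, neither called.

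A group of ligands and receptors of lymphocytes and dendritic cells had its largest abdominal values in the high-Cd3g arrays. Ccl5 is made by T and NK cells and binds Ccr1 and Ccr3. In the abdominal aorta it lay at 11.52, 11.51, 8.55 and 11.46 on high phosphate and at 7.93, 10.96, 8.55 and 11.32 on chow. The 5 high-Cd3g arrays lay between 10.96 and 11.52 and the other 3 between 7.93 and 8.55, whatever the diet. The diet difference was 1.07 ± 0.718 (adjusted p = 0.453 by limma). Thoracic Ccl5 lay at 7.51, 7.55 and 7.51 on high phosphate and at 7.73, 7.61, 8.12 and 7.71 on chow. The groups only just separated, and the difference of -0.27 ± 0.776 was not called (adjusted p = 0.945 by limma).

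Ccl22 and Ccl17 are ligands of Ccr4 made by dendritic cells. Abdominal Ccl22 lay at 8.01, 7.82, 5.71 and 7.59 on high phosphate and at 5.94, 6.72, 5.85 and 7.33 on chow. Again the high-Cd3g arrays were the brighter ones on both diets, and the difference was 0.82 ± 0.432 (adjusted p = 0.312 by limma). Thoracic Ccl22 lay at 6.36, 5.37 and 5.49 on high phosphate and at 5.60, 5.88, 5.89 and 5.76 on chow, with overlap. Ccl17 differed by 0.99 ± 0.342 in the abdominal aorta (adjusted p = 0.103 by limma). Its 3 high-Cd3g high-phosphate arrays lay between 5.94 and 6.30, above every other abdominal array, of which high-Cd3g chow arrays 2 and 4 were at 4.94 and 5.28. In the thoracic aorta Ccl17 stood at 6.17 in high-phosphate array 1 and between 4.18 and 5.00 in the other 6 arrays. Ccr4 differed by 0.32 ± 0.125 in the abdominal aorta (adjusted p = 0.152 by limma).

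Ccr7 brings T cells and dendritic cells into lymph nodes along Ccl19 and Ccl21. Abdominal Ccr7 lay at 7.33, 7.01, 5.93 and 7.20 on high phosphate and at 5.73, 6.39, 6.10 and 6.71 on chow, with the high-Cd3g arrays above the other 3. The diet difference was 0.64 ± 0.26 (adjusted p = 0.178 by limma). Thoracic chow arrays read 5.60, 5.67, 6.04 and 5.62. The median over the 13 probe sets that name copies of Ccl19 was 9.38, 9.39, 7.82 and 8.99 against 7.31, 8.66, 7.59 and 8.94 in the same arrays, and 7.13 to 7.51 in the thoracic arrays. The median over the 9 probe sets of Ccl21 copies was 10.57, 10.32, 8.76 and 9.96 against 8.89, 9.53, 8.57 and 9.99, and 7.60 to 8.71 in the thoracic arrays. Both ligands therefore followed the high-Cd3g arrays as their receptor did. Cxcr6, a receptor of memory T cells, lay at 7.14, 7.15, 6.21 and 6.82 on high phosphate and at 6.09, 6.79, 6.13 and 7.01 on chow in the abdominal aorta, and at 6.30, 6.24 and 6.16 against 6.42, 6.40, 6.13 and 6.01 in the thoracic aorta. The high-Cd3g arrays were the highest of the 15. Its ligand Cxcl16 reached 7.27 to 7.66 in the high-Cd3g arrays and 6.78 to 7.11 in the other 3 abdominal ones. Ccr6, a receptor of B cells and memory T cells, differed by 0.25 ± 0.278 between the diets in the abdominal aorta, and its ligand Ccl20 by 0.06 ± 0.141. Cxcr5, the receptor for Cxcl13, differed by 0.29 ± 0.213 there, with its highest abdominal values, 6.54 and 6.38, in high-phosphate array 1 and chow array 4, both high in Cd3g.

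Over all 47 genes, 16 had every high-Cd3g array above the other 3 abdominal arrays, against 6.34% of all genes. They were Ccl5, Ccl8, Ccl12, Ccl22, Cxcl9, Cxcl12, Cxcl16, Ccr1, Ccr4, Ccr6, Ccr7, Ccr9, Cxcr2, Cxcr3, Cxcr5 and Cxcr6. Only Ccl24 had them all below, against 4.29% of all genes. The gap between the ranges was 2.41 for Ccl5, 0.78 for Ccl22, 0.58 for Cxcr6 and 0.53 for Ccr6, and 0.41 or less for the other 12. Since the arrays were split by the level of a T cell gene, this is a description with no test. Cxcl13, Cxcl14 and Ccr10 were not among the 16. Of the 5 high-Cd3g arrays 3 were on high phosphate and 2 on chow.

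**Figure D2:**
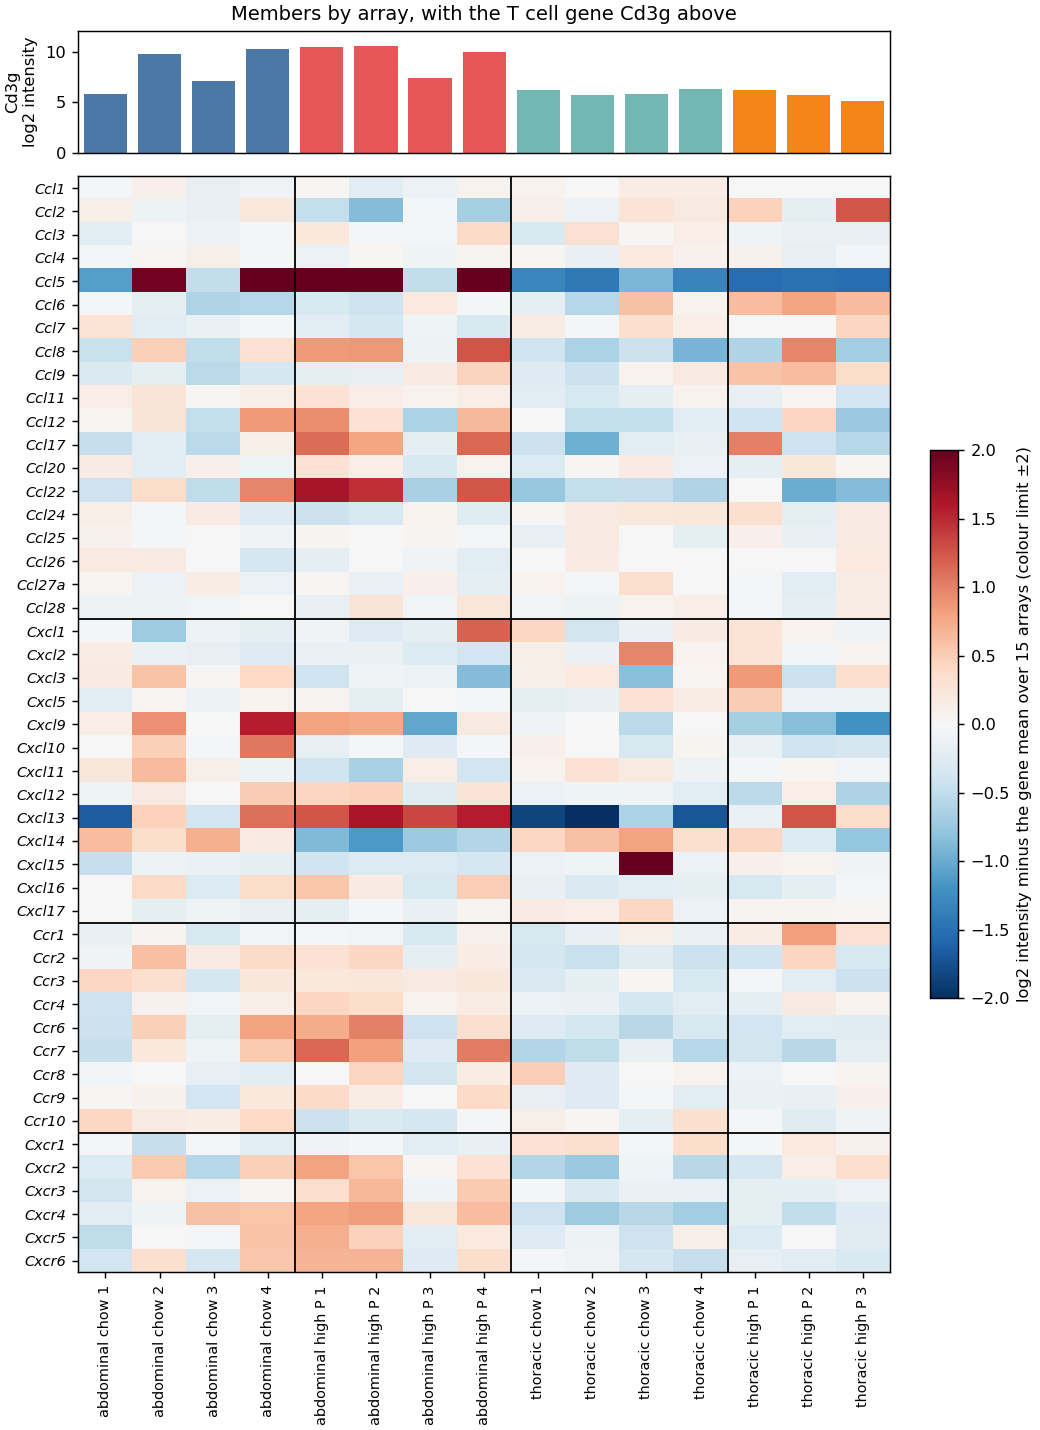
Deviation of each of the 47 genes from its own mean over the 15 arrays, in log2 units with the colour scale limited to 2 in either direction, with arrays in columns by segment and diet and bars of the Cd3g log2 intensity on top. The high-Cd3g abdominal arrays share bright Ccl5, Ccl22, Ccr7 and Cxcr6, and Cxcl14 is lower on high phosphate than on chow in all 4 abdominal arrays.

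Ligands and receptors of neutrophils gave no call between the diets. Cxcl1, Cxcl2, Cxcl3 and Cxcl5 attract neutrophils through Cxcr2. Cxcl1 differed by 0.43 ± 0.27 in the abdominal aorta, where high-phosphate array 4 was at 6.51 and the other 7 arrays between 4.62 and 5.31. Cxcl2 differed by -0.13 ± 0.185 and Cxcl5 by 0.01 ± 0.143. Cxcl15, a lung chemokine of rodents, differed by -0.10 ± 0.401. Cxcl3 lay at 2.78, 3.11, 3.06 and 2.30 on high phosphate and at 3.34, 3.75, 3.20 and 3.58 on chow, without overlap (-0.66 ± 0.274, adjusted p = 0.19 by limma), from a dim probe set whose signal over background is unknown. Cxcr2 lay at 7.42, 7.16, 6.64 and 6.90 on high phosphate and at 6.34, 7.13, 6.04 and 7.09 on chow in the abdominal aorta, and at 6.27, 6.75 and 6.95 against 6.02, 5.86, 6.52 and 6.06 in the thoracic aorta. The groups overlapped in both segments and the differences were 0.38 ± 0.246 and 0.54 ± 0.265. The neutrophil list mean was 7.20 in abdominal chow array 2 and 6.55 and 6.53 in abdominal high-phosphate arrays 1 and 2, against 5.10 to 5.86 elsewhere, and its part in the Cxcr2 values was not tested.

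None of Ccl11, Ccl24, Ccl26, Ccr3, Cxcl12 and Cxcr4 was called between the diets. Ccl11, or eotaxin, which recruits eosinophils through Ccr3, lay at 10.33, 10.17, 10.11 and 10.17 on high phosphate and at 10.18, 10.30, 10.06 and 10.16 on chow in the abdominal aorta. In the thoracic aorta it lay at 9.89, 10.08 and 9.66 against 9.84, 9.72, 9.87 and 10.11. Its diet differences were 0.02 with a 95% interval of -0.18 to 0.22 and -0.01 with an interval of -0.23 to 0.21. Ccl24 differed by -0.23 ± 0.129 and by -0.06 ± 0.14, Ccl26 by -0.12 ± 0.11 and by 0.02 ± 0.119, and Ccr3 by 0.06 ± 0.146 and by -0.04 ± 0.157. Cxcl12, which retains leukocytes and progenitors through Cxcr4, differed by 0.09 ± 0.176 and by -0.21 ± 0.19. Cxcr4 itself differed by 0.41 ± 0.178 in the abdominal aorta (adjusted p = 0.208 by limma) and by 0.27 ± 0.192 in the thoracic aorta. Ccl25 and Ccr9, the pair that directs T cells to the small intestine, differed by at most 0.25 in size in either segment, and Cxcl17, Ccl1 and Ccr8 by at most 0.16.

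**Figure D3:**
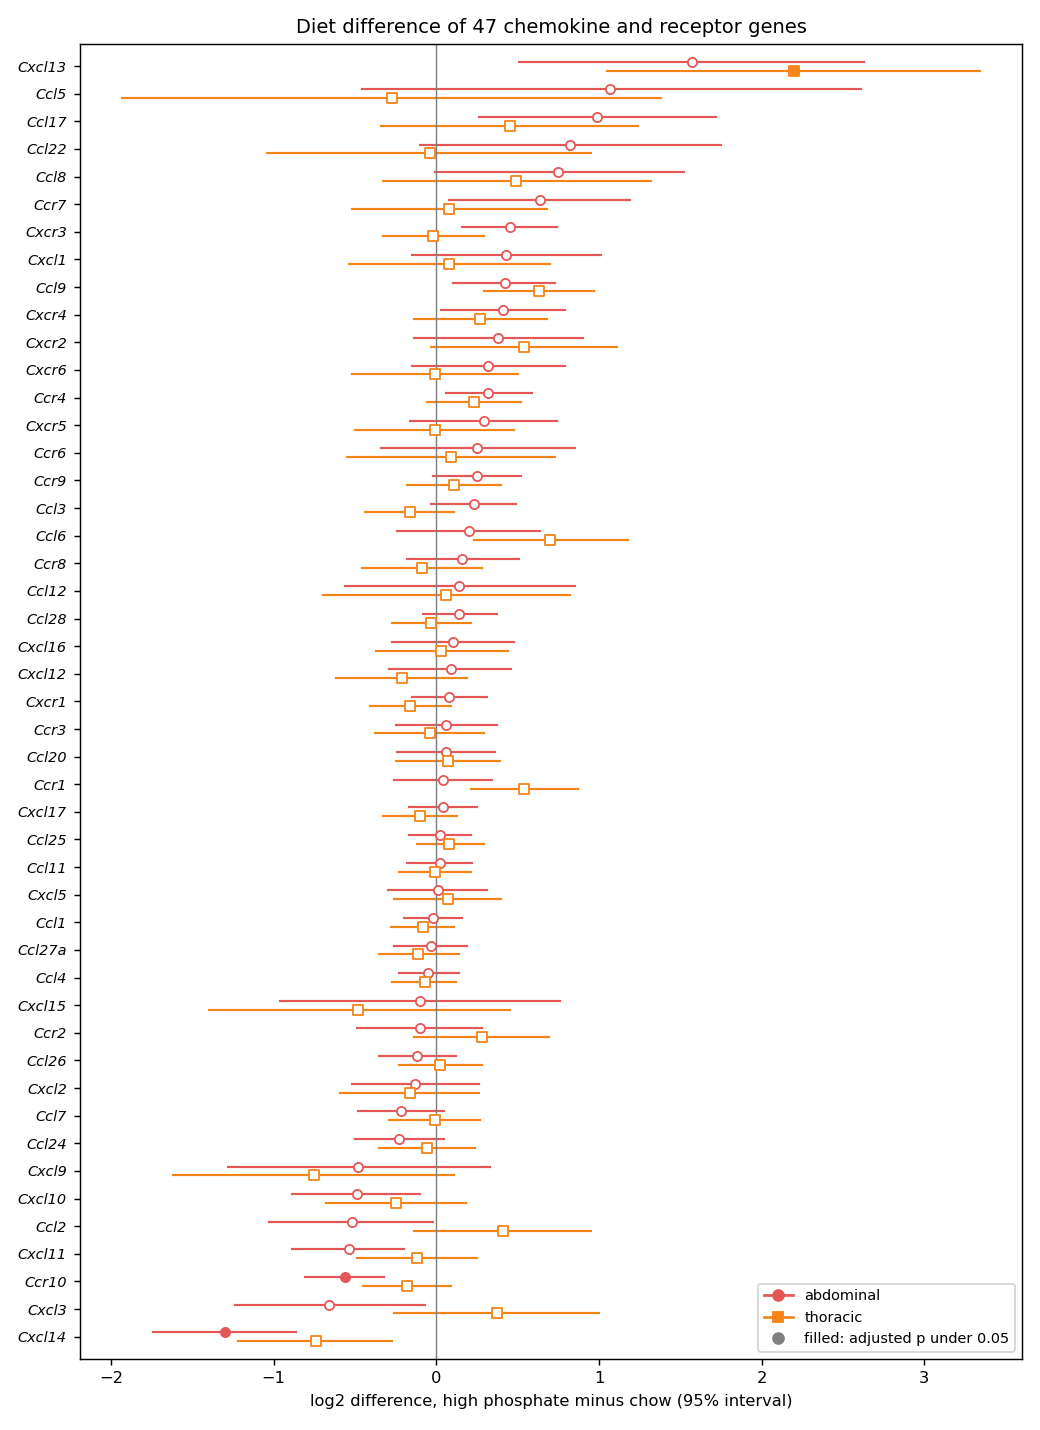
Log2 difference between high phosphate and chow with its 95% interval for each of the 47 genes in the abdominal and thoracic aorta, with filled points at an adjusted p under 0.05. Filled points are found only for Cxcl14 (-1.30) and Ccr10 (-0.56) in the abdominal aorta and Cxcl13 (2.20) in the thoracic aorta.

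Whether diet acted differently in the 2 segments was tested as the difference between the abdominal and the thoracic change. None of the 47 genes was called by limma, nor was any gene of the whole table, so 0% of all genes were called. At an unadjusted p under 0.05 there were 6 of 47 members, against 5.49% of all genes. Ccl2 differed by -0.93 ± 0.346, Cxcl3 by -1.03 ± 0.403, Ccr1 by -0.50 ± 0.209 and Ccr10 by -0.39 ± 0.172, so that the abdominal change was the lower one. Ccl3 differed by 0.39 ± 0.177 and Cxcr3 by 0.47 ± 0.199, so that it was the higher one. The adjusted p by limma was 0.879 for all 6. For Cxcl13 the difference was -0.63 with a 95% interval of -2.19 to 0.94, and for Cxcl14 it was -0.56 with an interval of -1.21 to 0.09. These calls in a single segment are therefore not shown to be specific to it.

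The comparison of segments asks how the thoracic aorta differs from the abdominal aorta on the same diet. It shares its groups with the diet comparisons. Cxcr4, the receptor for Cxcl12 on lymphocytes, progenitors and endothelium, was lower in the thoracic aorta on both diets. On chow limma called 2 of the 47 genes, 1 higher and 1 lower, where 4.78% of all genes were called (1.76% higher and 3.02% lower). On high phosphate it called 8 of 47, 3 higher and 5 lower, where 13.8% of all genes were called (7.57% higher and 6.25% lower). The unadjusted counts were 11 and 19 of 47, against 19.4% and 28.1%, and the groups did not overlap for 2 and 12 of 47, against 12% and 23.8%. The median difference of the 47 genes was -0.11 on chow and -0.09 on high phosphate, against 0.03 and 0.04 over all genes. Lists of other tissues also separated the segments. On high phosphate limma called 8 of 8 cardiac muscle and 8 of 8 smooth muscle genes higher in the thoracic aorta. It called 7 of 8 sympathetic and chromaffin genes lower there. On chow these counts were 7, 4 and 6. The part of these lists in the segment differences of the 47 genes was not tested.

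Cxcr4 lay at 6.89, 7.04, 7.70 and 7.68 in the abdominal and at 6.71, 6.41, 6.56 and 6.43 in the thoracic chow arrays. The segments were separate, and abdominal arrays 3 and 4 were the highest although only array 4 had high Cd3g. The thoracic level was lower by 0.80 on the log2 scale, with a difference of -0.80 ± 0.178 (adjusted p = 0.0173 by limma). On high phosphate it lay at 7.90, 7.96, 7.35 and 7.74 in the abdominal and at 6.92, 6.63 and 6.86 in the thoracic arrays, again separate, with a difference of -0.94 ± 0.192 (adjusted p = 0.00553 by limma). The call on high phosphate held without any 1 array, and the call on chow ended without abdominal chow array 3 or 4 or thoracic chow array 2 or 4. With the lymphocyte covariate the differences were -0.59 on chow (adjusted p = 0.0907 by limma) and -0.54 on high phosphate (adjusted p = 0.286 by limma). Without the 5 high-Cd3g arrays they were -0.77 (adjusted p = 0.0738 by limma) and -0.55 (adjusted p = 0.395 by limma).

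Cxcr1, a neutrophil receptor, was the gene called higher in the thoracic aorta on chow. It lay at 5.58, 5.16, 5.60 and 5.41 in the abdominal and at 5.92, 5.95, 5.60 and 5.98 in the thoracic chow arrays. Thoracic array 3 reached into the abdominal range. The difference was 0.42 ± 0.109 (adjusted p = 0.0368 by limma), and the call ended without abdominal chow array 2 or 4 or thoracic chow array 1, 2 or 4, with differences from 0.33 to 0.51. It was 0.38 with the lymphocyte covariate (adjusted p = 0.147 by limma) and 0.27 without the high-Cd3g arrays (adjusted p = 0.411 by limma). On high phosphate, with 5.56, 5.60, 5.42 and 5.48 in the abdominal and 5.60, 5.82 and 5.71 in the thoracic arrays, the difference was 0.19 ± 0.117 (adjusted p = 0.311 by limma).

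On high phosphate the genes called lower in the thoracic aorta were, besides Cxcr4, Ccl5, Ccl22, Ccr7 and Cxcr3. All 4 were among the 16 genes brightest in the high-Cd3g arrays. Ccl5 differed by -3.24 ± 0.776, 9.43-fold (adjusted p = 0.0132 by limma), with thoracic values of 7.51 to 7.55 below every abdominal one. The thoracic arrays lay closer to abdominal array 3, at 8.55, than to the other 3, and without the 5 high-Cd3g arrays the difference was -1.03 (adjusted p = 0.0471 by limma). With the lymphocyte covariate it was -0.56 (adjusted p = 0.483 by limma). Ccl22 differed by -1.54 ± 0.466 (adjusted p = 0.0391 by limma). Abdominal array 3, at 5.71, was among the thoracic values. Without the high-Cd3g arrays its difference was 0.0263, of opposite sign.

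Ccr7 lay at 5.81, 5.63 and 5.99 in the thoracic high-phosphate arrays, on either side of abdominal array 3 at 5.93, and differed by -1.06 ± 0.281 (adjusted p = 0.0217 by limma). Cxcr3 lay at 6.08, 6.08 and 6.14, just under abdominal array 3 at 6.19, and differed by -0.52 ± 0.146 (adjusted p = 0.0275 by limma). Without the high-Cd3g arrays these differences were -0.12 and -0.09, and with the lymphocyte covariate -0.19 and -0.14, none called. The calls of these 4 genes, except that of Ccl5, also ended without abdominal array 1 or 2 or 4, or thoracic high-phosphate array 2. They further ended without thoracic high-phosphate array 1 for Ccr7 and Cxcr3, without its array 3 for Ccl22 and Cxcr3, and without thoracic chow array 1, 2 or 4 for Ccl22. T and NK cell genes were lower in the thoracic high-phosphate arrays too, with 7 of 12 called, as were 6 of 10 B and plasma cell genes. Of all genes 6.25% were called lower in this comparison.

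The 3 genes called higher in the thoracic aorta on high phosphate belonged to the monocyte ligands and receptors. Ccl2, with the values given above, differed by 1.02 ± 0.254, 2.03-fold (adjusted p = 0.0159 by limma). Abdominal array 3, at 6.80, was above thoracic array 2, at 6.65. Without thoracic high-phosphate array 3, the brightest at 8.07, the difference was 0.65 (adjusted p = 0.071 by limma), and the call also ended without abdominal array 2 (0.90, adjusted p = 0.0519 by limma). Ccl6 lay at 6.81, 6.70, 7.31 and 7.08 in the abdominal high-phosphate arrays, below all thoracic ones, with a difference of 0.82 ± 0.224 (adjusted p = 0.0241 by limma). The call ended without abdominal array 1 or 2 or any 1 of the thoracic high-phosphate arrays, with differences from 0.73 to 0.94. Ccr1 lay at 5.09, 5.08, 4.83 and 5.21 in the abdominal high-phosphate arrays, also below all thoracic ones, with a difference of 0.50 ± 0.153 (adjusted p = 0.0433 by limma). Without thoracic high-phosphate array 2 it was 0.30 (adjusted p = 0.205 by limma). Leaving out abdominal high-phosphate array 1, 2 or 3, abdominal chow array 1, thoracic high-phosphate array 3 or thoracic chow array 2 or 4 ended the call as well. Without the high-Cd3g arrays Ccl2, Ccl6 and Ccr1 differed by 0.54, 0.49 and 0.72, and with the lymphocyte covariate by 0.81, 0.55 and 0.70, none called. Of 11 macrophage genes, 0 were called between the segments by limma on either diet, and 0 had an unadjusted p under 0.05, while Ccl6, Ccr1 and Ccl2 were not called on chow, at 0.32 ± 0.207, -0.01 ± 0.142 and 0.09 ± 0.235.

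**Figure D4:**
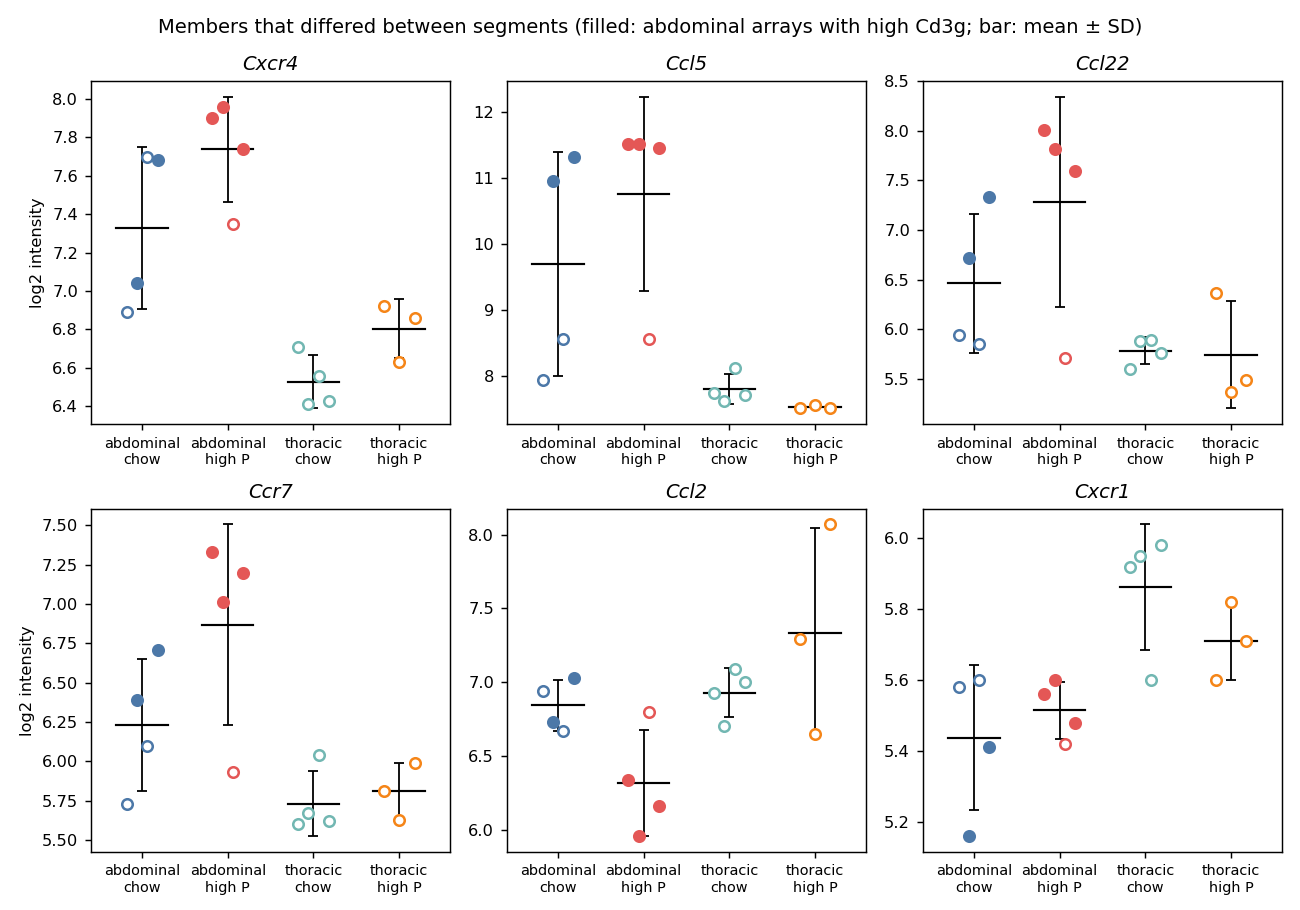
Log2 intensity of Cxcr4, Ccl5, Ccl22, Ccr7, Ccl2 and Cxcr1 in each array by segment and diet, with bars for the group mean ± SD and filled points for the 5 high-Cd3g abdominal arrays. Thoracic Cxcr4 is below the abdominal arrays on both diets, and Ccl5 in the filled arrays (10.96 to 11.52) is far above all other arrays.

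Other abdominal and thoracic contrasts among the 47 genes were not called. On chow Cxcl13 differed by -1.59 ± 0.498 (adjusted p = 0.0856 by limma), Ccl5 by -1.89 ± 0.718 (adjusted p = 0.158 by limma) and Ccr2 by -0.63 ± 0.181 (adjusted p = 0.0593 by limma). Ccr2 was called in 8 of the alternative fits, among them that with array weights (-0.66, adjusted p = 0.0431 by limma). Each of Cxcl13 and Ccl5 passed the threshold without abdominal chow array 1, the abdominal array with the lowest Cd3g and Glycam1. On high phosphate Ccl11 differed by -0.32 ± 0.103 (adjusted p = 0.0529 by limma) and Cxcl12 by -0.57 ± 0.19 (adjusted p = 0.0582 by limma), and Ccl7 by 0.38 ± 0.132 (adjusted p = 0.0676 by limma).

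Chemokines and receptors of other classes were read beside them from a list of 11 genes. In the abdominal aorta 1 of 11 was called with diet, where 7.01% of all genes were called. It was Ackr3, a scavenging receptor for Cxcl12 and Cxcl11, which fell by 0.53 ± 0.114 on the log2 scale (adjusted p = 0.0103 by limma). It lay at 6.86, 6.87, 7.05 and 6.77 on high phosphate and at 7.75, 7.49, 7.30 and 7.12 on chow, without overlap. In the thoracic aorta 0 of 11 were called by limma, where 2.47% of all genes were called. An unadjusted p under 0.05 was reached by 3 of 11, against 13.8% of all genes. The 3 included the platelet chemokines Ppbp (1.05 ± 0.417) and Pf4 (0.42 ± 0.171). Between segments Ackr1, a chemokine-binding protein of venules and red blood cells, was lower in the thoracic aorta on chow (-0.76 ± 0.149, adjusted p = 0.00807 by limma) and on high phosphate (-0.82 ± 0.161, adjusted p = 0.00404 by limma). On high phosphate Pf4 (0.93 ± 0.171), Ppbp (1.75 ± 0.417) and Ackr3 (0.53 ± 0.123) were higher there. So 1 of 11 was called on chow, against 4.78% of all genes. On high phosphate 4 of 11 were called, against 13.8% of all genes (7.57% higher and 6.25% lower).

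Genes of the signalling below the receptors and of the inflammatory programme that induces many chemokines were read from lists of 18 and 13. Of 18 signalling genes 1 was called in the abdominal aorta, the G protein subunit Gnb1 (-0.27 ± 0.0688), where 5.06% of all genes were called lower, and 0 in the thoracic aorta, where 2 had an unadjusted p under 0.05. Between segments on high phosphate 6 of the 18 were called, all lower in the thoracic aorta, where 6.25% of all genes were called lower. They were the leukocyte genes Dock2 (-1.84 ± 0.542), Rgs1 (-1.48 ± 0.365), Pik3cg (-1.14 ± 0.329), Elmo1 (-0.98 ± 0.244) and Plcb2 (-0.90 ± 0.284) and the G protein subunit Gng2 (-1.14 ± 0.191), and only Gng2 was called on chow (-0.94 ± 0.177). Dock2 lay at 9.32, 9.26 and 8.73 in the high-Cd3g high-phosphate arrays and at 7.02 in array 3, against 6.51 to 6.95 in the thoracic ones. Abdominal array 3 was likewise the nearest to the thoracic arrays for Rgs1, Pik3cg, Elmo1 and Plcb2, and the part of T cell markers in these calls was not tested. Of 13 inflammatory cytokines and NF-kB targets 2 rose in the abdominal and 1 in the thoracic aorta, where 1.95% and 1.39% of all genes were called higher. Nfkbia, the inhibitor that NF-kB induces and that glucocorticoids induce too, lay at 8.33, 8.37, 8.27 and 8.41 on high phosphate and at 7.73, 7.85, 7.48 and 8.08 on chow in the abdominal aorta. It rose by 0.56 ± 0.106 (adjusted p = 0.00405 by limma) there and by 0.56 ± 0.115 (adjusted p = 0.0188 by limma) in the thoracic aorta. Vcam1, an adhesion molecule for monocytes and lymphocytes, rose by 0.72 ± 0.157 in the abdominal aorta, with 8.43, 8.44, 7.65 and 8.24 on high phosphate against 7.24, 7.59, 7.26 and 7.78 on chow. High-phosphate array 3, with low Cd3g, was the lowest of its group and inside the chow range. Of 9 genes of the lymphotoxin and non-canonical NF-kB pathway, which drives Cxcl13 in lymphoid stroma, 0 were called with diet in either segment, and 1 in the abdominal and 0 in the thoracic aorta had an unadjusted p under 0.05.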

How the data were processed

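Total RNA was amplified and biotin-labelled for arrays, per the labels' protocols. The deposited table holds 1 value per probe set and array, taken as log2 intensity because values ran from 1.38 to 13.33. Per the submitters' processing notes, which state no version or role, RMA and Partek were used, and the authors' log base is not given in the sources used here. Detection calls and scan dates were not used here, so signal over background is unknown.

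Of 41345 probe sets 23521 name 1 gene, and the brightest per gene over all arrays left 22180 genes. Arrays were grouped by title. limma 3.58.1 in R 4.3.3 (lmFit with 4 group means, eBayes with trend, 11 residual degrees of freedom) gave the diet change in each segment, its difference (abdominal minus thoracic) and the thoracic minus abdominal difference on each diet, two-sided, adjusted by Benjamini-Hochberg over all genes. The script was tested on simulated data. Values of every array are given for called genes and for the 5 ligands and 5 receptors whose probe sets had the highest means, and for other genes where a comparison turns on them, chosen after their values were seen. Apart from this choice, the word dim and percentiles of mean level, levels were not compared between genes.

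Alternatives changed the variance prior, dim-gene filter (30th percentile), groups fitted, normalization, array weights, replicate block, probe set summary and arrays. The dim-gene filter removed Ccr1, at percentile 27.7 of mean level, so Ccr1 has no value in that fit. Fits without high-Cd3g arrays, without abdominal high-phosphate arrays 3 and 4, and with lymphocyte or adipocyte covariates were added after seeing the data. The members, gene lists and tests were chosen with earlier results of these data known. Promoters come from RefSeq. Figures were drawn with matplotlib 3.10.9.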

Additional observations from a re-analysis of the deposited data

Results flagged for a closer look

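Among 141 groups of 4 arrays, 1 for each gene and each group of that size, 8 held an array far from the other 3 by Dixon's test. Chance alone flags about 5% of groups. The groups of 3 were not tested. Abdominal high-phosphate array 3 was lowest for Ccl5, at 8.55 against 11.46 to 11.52. Abdominal high-phosphate array 4 was highest for Cxcl1, at 6.51 against 5.08 to 5.27. Thoracic chow array 2 was highest for Ccl26, at 4.12 against 3.96 to 3.97. The other 5 all concern thoracic chow array 3. It was highest for Cxcl15, the chemokine lungkine, at 6.68 against 4.19 to 4.23, and for Ccr7, at 6.04 against 5.60 to 5.67. It was lowest for Cxcl9, at 7.20 against 7.66 to 7.75, for Cxcr1, at 5.60 against 5.92 to 5.98, and for Cxcl3, at 2.34 against 3.22 to 3.37. That array also had the highest thoracic B and plasma cell list mean, 5.99, whose part in these values was not tested.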

How the results depend on the processing

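The number of the 47 genes called depended on the setting. In the abdominal diet comparison it was 2, and 4 after removal of dim genes, 6 with array weights or without abdominal high-phosphate arrays 3 and 4, 4 with the lymphocyte covariate, and 0 without the high-Cd3g arrays or with the adipocyte covariate. Leaving out each array gave 2 to 7, the highest without abdominal high-phosphate array 3, and 4 without abdominal chow array 4. Over all genes the number called was 1554 of 22180, 1757 of 15526 after removal of dim genes and 2024 with array weights. It was 1732 without abdominal high-phosphate arrays 3 and 4, 1189 with the lymphocyte covariate and 0 with the adipocyte covariate. Left-out arrays gave 891 to 2249. In the thoracic diet comparison it was 1, and 0 without trend, with quantile normalization or with the adipocyte covariate, 2 after removal of dim genes, with the replicate block or without the high-Cd3g arrays, and 4 with array weights or the lymphocyte covariate. Leaving out each array gave 0 to 3. Over all genes the number called was 548 of 22180, 461 without trend, 600 with quantile normalization and 4 with the adipocyte covariate. It was 694 of 15526 after removal of dim genes and 646 with the replicate block. With array weights it was 907, with the lymphocyte covariate 980, and 209 to 605 over the left-out arrays. Between segments on chow it was 2, and 4 with array weights, 1 with the adipocyte covariate and 0 without the high-Cd3g arrays or with the lymphocyte covariate. Leaving out each array gave 0 to 5, the highest without abdominal chow array 1. Over all genes the number called was 1061 of 22180 and 1227 with array weights. It was 636 with the adipocyte and 553 with the lymphocyte covariate. Left-out arrays gave 500 to 1369, the highest also without abdominal chow array 1. Between segments on high phosphate it was 8, and 5 with only the groups compared, 16 with array weights, 13 without abdominal high-phosphate arrays 3 and 4, 1 without the high-Cd3g arrays and 0 with either covariate. Leaving out each array gave 2 to 16, the extremes being abdominal high-phosphate arrays 2 and 3. Over all genes the number called was 3067 of 22180, and 1849 and 4025 without these 2 arrays. It was 2216 with only the groups compared, 4364 with array weights and 3578 without abdominal high-phosphate arrays 3 and 4. With the lymphocyte covariate it was 357 and with the adipocyte covariate 15. The swings are therefore not particular to the 47 genes. The difference of diet changes gave 0 under every alternative run. Of 646 alternative values for 24 single-gene results, 515 kept direction and side of the threshold, 97 lost the call, 26 gained it and 8 changed sign. With the adipocyte covariate the signs changed for Cxcl13 (-1.68), Cxcl14 (0.31), Cxcl11 (0.31) and Cxcr3 (-0.44) in the abdominal diet comparison, Cxcl14 (0.19) and Ccr1 (-0.00112) in the thoracic one, and Ccr7 between segments on high phosphate (0.23), none of them called. Ccl22 changed sign there without the high-Cd3g arrays (0.0263). The cause was not tested. Whether shared replicate numbers pair samples is not known. Deviations of same-numbered arrays correlated at 0.03 to 0.122 between segments on the same diet. Between diets in the same segment they correlated at -0.25 to 0.404. Arrays with unlike numbers were not compared, so these values cannot decide on pairing. With the replicate block the thoracic change of Cxcl13 was 2.34 (adjusted p = 0.0327 by limma), Ccl9 was called in the same comparison and Ccr2 between segments on chow (-0.63, adjusted p = 0.0365 by limma), and Cxcr1 on chow and Ccl22, Ccr7 and Cxcr3 on high phosphate were no longer called. Fitted on only the groups compared, Cxcr1 on chow and Ccl2, Ccl22, Ccr1, Ccr7 and Cxcr3 on high phosphate were not called either.

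The number of arrays limits all comparisons, with 3 in the smallest group. Adipocyte list means were lower with diet in both segments. The fit without high-Cd3g arrays leaves 1 abdominal high-phosphate array, whose hepatocyte genes and Glycam1 are bright and which is assumed to vary like the other groups. Signal over background is unknown, which bears most on dim genes such as Cxcl3. The mean levels of Ccr1 and Ccr10 were also low, at percentiles 27.7 and 31.6 of all genes.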
